A study of Mus musculus with 11 samples.

Results

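Interferon signaling genes were followed in mouse small cell lung cancers, which are neuroendocrine tumors, whose MYCN transgene was switched on or off. The 9 genes were Ifnar1, Jak1, Stat2, Stat3, Irf1, Irf2, Irf3, Irf7 and Irf9. They were chosen by name as receptor, kinase and transcription factor steps of the pathway, and they are 9 of the 23284 genes in the count tables. Doxycycline was being given for the 7 tumors called MYCN ON here. It had been withdrawn 7 days earlier for the 4 tumors called MYCN OFF. All tumors carried the genotype Rb;p53,TRE-MYCN, LSL-RTTA, so both groups share the Rb and p53 alleles, the doxycycline-responsive MYCN transgene and a doxycycline transactivator that Cre must switch on. Which cells Cre acted in, and the strain, age and number of mice, is not given in the sources used here. If tumors shared a mouse, p-values reflect tumor-to-tumor spread only, part of which may be technical. The samples analysed here hold no tumor on doxycycline without the transgene, and effects of MYCN and of the drug cannot be told apart.

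Type I interferons bind a receptor made of Ifnar1 and Ifnar2, whose cytoplasmic parts hold the kinases Tyk2 and Jak1. The kinases phosphorylate STAT proteins, and a complex of STATs with Irf9, called ISGF3, enters the nucleus and switches on interferon-stimulated genes at a sequence named the interferon-stimulated response element (ISRE). Interferon gamma uses another receptor with Jak1 and Jak2 and a STAT dimer that binds the gamma-activated sequence (GAS). Irf3 and Irf7 act upstream, inducing the interferon genes when nucleic acid sensors fire, and Irf7 is itself an interferon-stimulated gene. Irf1 is an activator induced through GAS, Irf2 competes with it for the same sites, and Stat3 is best known for signals of the interleukin 6 family.

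The start-site regions of the genes on which the results below turn are shown because ISRE and GAS letters lie in 3 of them. RefSeq start-site windows (GRCm38.p6, 250 bases before to 50 after the start) were found for all 9 genes, 11 windows in all because Irf1 and Irf9 have a pair each. The patterns searched, on both strands, were GAAA, any 2 bases and GAAA again for ISRE, TTCNNNGAA for GAS and CACGTG, the canonical E-box that MYC proteins bind. The letters that matched are in capitals, no matches overlapped, and N stands for any base.
Irf1, chr11:53769764-53770063, plus strand: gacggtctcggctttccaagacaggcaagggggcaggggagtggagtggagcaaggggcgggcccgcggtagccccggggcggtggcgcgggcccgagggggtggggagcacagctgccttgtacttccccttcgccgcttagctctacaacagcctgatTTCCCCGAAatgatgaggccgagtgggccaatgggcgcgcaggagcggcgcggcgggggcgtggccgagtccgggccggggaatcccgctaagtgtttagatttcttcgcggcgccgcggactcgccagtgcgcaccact
Irf2, chr8:46739495-46739794, plus strand: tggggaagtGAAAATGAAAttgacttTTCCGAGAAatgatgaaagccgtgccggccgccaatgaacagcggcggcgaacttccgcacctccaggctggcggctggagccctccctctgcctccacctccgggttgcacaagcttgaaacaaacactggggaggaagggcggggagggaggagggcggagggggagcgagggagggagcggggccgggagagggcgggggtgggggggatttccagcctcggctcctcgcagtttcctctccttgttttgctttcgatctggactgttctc
Stat2, chr10:128270248-128270547, plus strand: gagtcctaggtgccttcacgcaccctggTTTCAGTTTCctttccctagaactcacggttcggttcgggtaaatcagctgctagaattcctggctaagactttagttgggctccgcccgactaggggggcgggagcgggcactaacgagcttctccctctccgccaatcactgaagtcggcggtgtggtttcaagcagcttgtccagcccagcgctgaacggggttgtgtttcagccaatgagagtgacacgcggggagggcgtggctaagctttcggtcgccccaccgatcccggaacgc
Irf7, chr7:141266375-141266674, minus strand: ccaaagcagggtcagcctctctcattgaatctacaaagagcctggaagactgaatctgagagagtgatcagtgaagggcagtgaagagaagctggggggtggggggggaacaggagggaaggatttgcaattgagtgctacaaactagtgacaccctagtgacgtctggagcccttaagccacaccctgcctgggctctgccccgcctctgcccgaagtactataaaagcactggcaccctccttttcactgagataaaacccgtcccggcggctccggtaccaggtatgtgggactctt
The ISRE letters lay in 2 of the 11 windows, Irf2 (first base 241 before the start) and Stat2 (222 before), against 3.44% of all 32851 mouse windows of this length. The GAS letters lay in 3, Irf1 (90 before), Irf2 (224 before) and Ifnar1 (5 before), against 8.3% of all windows. The E-box letters lay in 0 of the 11, against 7.15% of all windows. Irf7 is printed as the gene with the largest difference between the groups, and its window held none of the 3 patterns. A match is a stretch of letters, not a measured binding site, and the absence of one says only that these letters are not in the window.

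The deepest MYCN ON library had 13123838 reads in genes and the shallowest 10324089, and the MYCN OFF libraries lay between 8951733 and 12190957. Levels are given in CPM, a gene's count scaled to a common sequencing depth with TMM factors for library composition. Means carry their SD (n = 7 for MYCN ON, n = 4 for MYCN OFF). Fold changes divide MYCN ON by MYCN OFF. Mycn itself was at 102 ± 48.1 CPM in MYCN ON and 12.2 ± 4.51 CPM in MYCN OFF, without overlap, a log2 fold change of 3.06 (SE 0.47, edgeR adjusted p = 0.00139). These reads were counted under the mouse gene symbol, and reads of the transgene and of the endogenous gene cannot be told apart. The 8 neuroendocrine markers were detected in every tumor, with a sum of 1997 to 3681 CPM in MYCN ON and 1518 to 7683 CPM in MYCN OFF. The tumors also held other tissue in uneven amounts. The 13 alveolar and club cell markers summed to 61.3 to 3616 CPM in MYCN ON and 150.0 to 34740 CPM in MYCN OFF, with up to 4 markers at 0 in a MYCN ON tumor and up to 1 in a MYCN OFF tumor. The 20 immune markers summed to 246 to 933 CPM in MYCN ON and 442 to 6130 CPM in MYCN OFF, with up to 4 at 0 in a MYCN ON tumor and 0 at 0 in MYCN OFF. In bulk RNA, fewer cells of a type and less RNA per cell cannot be told apart.

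Of the 9 genes, 6 had lower expression in MYCN ON (adjusted p below 0.05, edgeR) and 0 had higher expression. Irf7 was 18.01-fold, Irf1 3.90-fold, Stat2 3.40-fold, Irf9 2.79-fold, Irf3 1.92-fold and Irf2 1.82-fold higher in MYCN OFF. Jak1, Stat3 and Ifnar1 did not pass the test. All 9 passed the low-count filter, and their median log2 fold change was -0.94, against 0.00230 over the 15237 genes tested. Of those, 13.4% were called lower in MYCN ON and 16% higher, 29.4% in all. With library totals as the scaling, 22% of all genes were lower and 8.64% higher. For Irf1, Irf2, Irf3, Irf7 and Stat2 every MYCN ON tumor lay below every MYCN OFF tumor, a pattern that 5.41% of all genes tested showed.

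**Figure D1:**
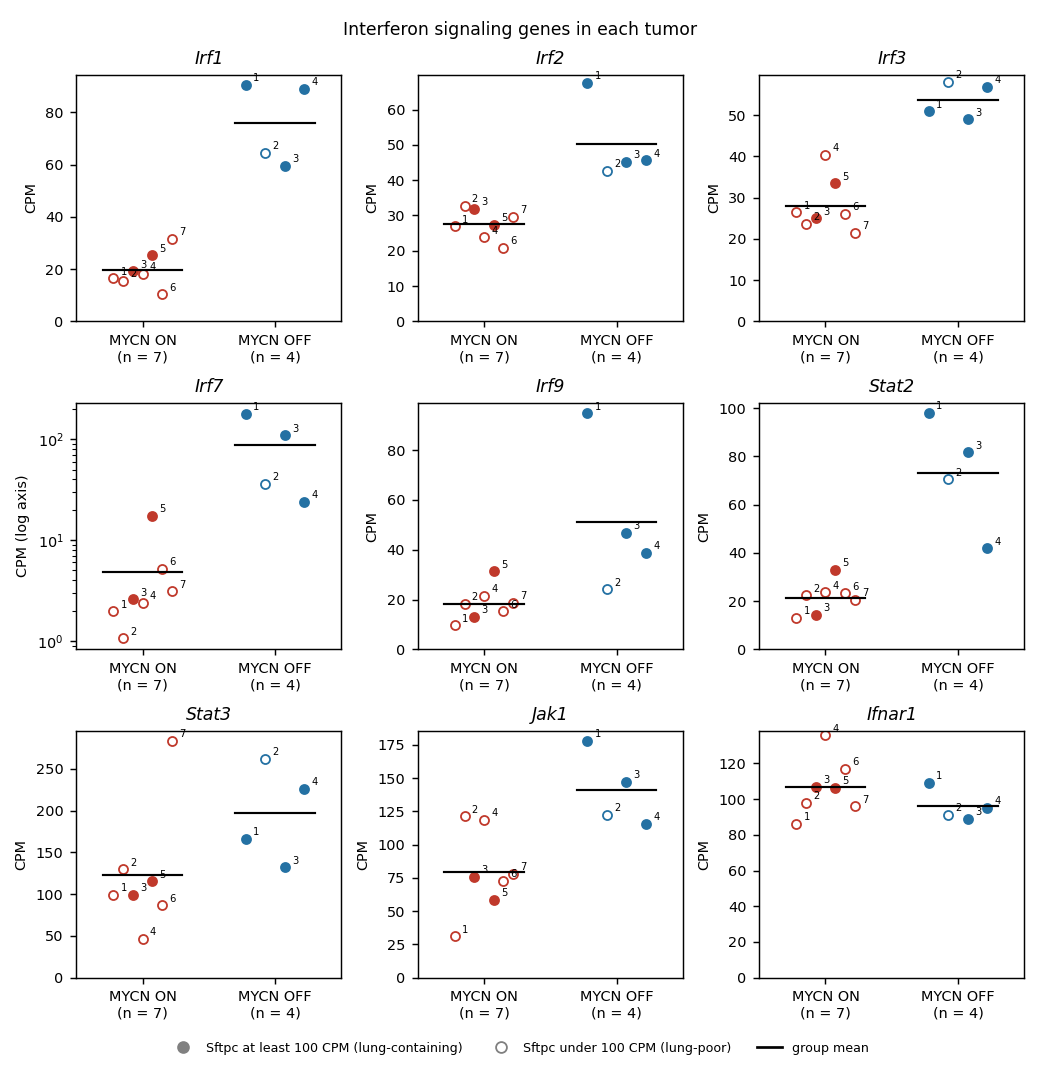
Level of each of the 9 genes in each tumor in CPM (y axis; a log axis for Irf7), with MYCN ON tumors (red, n = 7) left of MYCN OFF tumors (blue, n = 4), numbered by tumor; black lines are group means, filled points are tumors with Sftpc of at least 100 CPM and open points are below it. MYCN ON lies wholly below MYCN OFF for Irf1, Irf2, Irf3, Irf7 and Stat2, and the groups overlap for Irf9, Stat3, Jak1 and Ifnar1.

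Ifnar1, the first chain of the type I interferon receptor, differed little between the groups. Its lowest, median and highest values were 86.2, 106 and 136 CPM in MYCN ON, and it was at 109, 91.1, 88.9 and 95.1 CPM in MYCN OFF tumors 1 to 4. The MYCN OFF values all lie inside the MYCN ON range. On the log2 scale the fold change was 0.15 (SE 0.15, 95% interval -0.17 to 0.47, edgeR adjusted p = 0.465), and its sign turned under library totals (-0.15) and under upper quartile factors (-0.06). Ifnar2, the second chain, was lower in MYCN ON at 18.03 ± 6.15 against 41.1 ± 26.3 CPM, a log2 fold change of -1.19 (SE 0.39, edgeR adjusted p = 0.0408), but MYCN OFF tumor 2 was at 13.7 CPM, within the MYCN ON range of 11.7 to 26.0. With the immune marker score as a covariate its log2 fold change was 0.23 (adjusted p = 0.658). Of the 5 other interferon receptor chains tested, 2 were called lower, Ifnar2 and Il10rb (log2 fold change -1.47, adjusted p = 0.0336), the chain shared by the interferon lambda and interleukin 10 receptors. Over all genes, 13.4% were called lower. Ifngr1 and Ifngr2, the chains of the interferon gamma receptor, were not called, with log2 fold changes of -0.80 (adjusted p = 0.059) and -0.24 (adjusted p = 0.584).

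Jak1, the kinase common to all interferon receptors, lay just outside the threshold. It ran from 31.0 CPM in MYCN ON tumor 1 over a median of 75.9 to 121 CPM in tumor 2, and it was at 178, 123, 147 and 116 CPM in MYCN OFF tumors 1 to 4. The groups met where MYCN ON tumors 2 and 4 (121 and 119 CPM) passed MYCN OFF tumor 4. As a log2 fold change this is -0.83 (SE 0.30, 95% interval -1.49 to -0.16, edgeR adjusted p = 0.0597). The call depended on the method, since RLE factors (adjusted p = 0.0409), library totals (0.0177), DESeq2 (0.0200) and limma voom (0.0444) each called it lower. Of 26 alternatives, 10 called it and 16 did not, among them the immune score (-0.62, adjusted p = 0.427), the lung score (-0.94, adjusted p = 0.171) and leaving out MYCN OFF tumor 1 (-0.69, adjusted p = 0.171). RLE factors, library totals, DESeq2 and limma voom called 15.2%, 22%, 19.3% and 12.1% of all genes lower. Tyk2, the partner kinase at Ifnar1, was lower without overlap, at 15.97 ± 3.58 against 32.3 ± 5.90 CPM, which is -1.01 on the log2 scale (SE 0.22, adjusted p = 0.00648). Jak2 of the interferon gamma receptor was at 37.4 ± 17.6 against 65.1 ± 9.64 CPM and was not called (adjusted p = 0.085). Jak3, a kinase of lymphocyte cytokine receptors, was lower (log2 fold change -1.69, adjusted p = 0.00229). Thus 2 of the 3 other JAK kinases were called lower, against 13.4% of all genes.

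Stat2, the STAT that is particular to ISGF3 and carries ISRE letters in its start-site window above, was lower in MYCN ON. It was at 13.0 to 33.0 CPM in MYCN ON, with a median of 22.5, and at 98.0, 70.5, 81.7 and 41.9 CPM in MYCN OFF tumors 1 to 4. Every MYCN OFF tumor was above the highest MYCN ON tumor, which was tumor 5. Its log2 fold change was -1.76 (SE 0.27, 95% interval -2.36 to -1.17, edgeR adjusted p = 0.00147).

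Stat3, the STAT of interleukin 6 family signals, spread widely inside MYCN ON. It ran from 46.7 CPM in tumor 4 over a median of 99.6 to 284 CPM in tumor 7, the highest of all 11 tumors. In MYCN OFF tumors 1 to 4 it was at 167, 262, 132 and 227 CPM. Apart from tumor 7, every MYCN ON tumor lay below every MYCN OFF tumor. The log2 fold change of -0.68 (SE 0.39, 95% interval -1.52 to 0.16) was not called with all tumors (edgeR adjusted p = 0.201) and was called without MYCN ON tumor 7 (-1.03, adjusted p = 0.0211), where 11.9% of all genes were called lower. With the immune marker score as a covariate Stat3 was at -1.39 and not called (adjusted p = 0.101). MYCN ON tumor 7 was also highest in MYCN ON for Socs3, the feedback inhibitor that Stat3 induces, at 50.03 CPM against a MYCN ON median of 14.8 CPM. Of other Stat3 target genes, Bcl3 (13.7 CPM), Bcl6 (10.3), Junb (25.8), Bcl2l1 (126) and Il4ra (26.3) were also highest in MYCN ON in that tumor. Ccnd1 (6.53 CPM, against 6.62 in tumor 1) and the receptor gene Osmr (4.52 CPM, against 4.78 in tumor 2) were lowest there. The other Stat3 target genes tested lay between. Il6ra, a chain of the interleukin 6 receptor, was at 54.5 CPM in tumor 7 and at most 7.93 CPM in the other MYCN ON tumors. Stat3 activity was not tested.

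Among the other STAT genes, 4 of 5 tested were called lower in MYCN ON and 0 higher, against 13.4% and 16% of all genes. Stat5a, a STAT of growth hormone and cytokine receptors, was at 4.43 ± 3.31 against 18.7 ± 11.3 CPM (a log2 fold change of -2.07, edgeR adjusted p = 0.0153), with every MYCN ON tumor below every MYCN OFF tumor. Stat6, the STAT of interleukin 4, was at 13.9 ± 4.94 against 51.0 ± 42.1 CPM (a log2 fold change of -1.87, adjusted p = 0.0159). For Stat6 the MYCN OFF tumor with little immune or lung RNA, tumor 2, was at 9.51 CPM, below the MYCN ON median of 12.8. Stat4, a STAT of T and natural killer cells, averaged 0.414 ± 0.491 against 3.42 ± 3.43 CPM (adjusted p = 0.0344). Stat5b, at -0.59 on the log2 scale, was not called (adjusted p = 0.209).

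Irf1, the activator induced through GAS, had the smallest p of the 9 genes, rank 155 of all genes tested. It was at 10.3 to 31.5 CPM in MYCN ON, with a median of 18.1, and at 90.5, 64.6, 59.6 and 89.1 CPM in MYCN OFF tumors 1 to 4. The nearest tumors of the groups, MYCN ON tumor 7 and MYCN OFF tumor 3, were 31.5 against 59.6 CPM. The groups differed by a log2 fold change of -1.96 (SE 0.27, 95% interval -2.54 to -1.38, edgeR adjusted p = 0.000847).

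Irf2, which competes with Irf1 at the same sites, moved in the same direction by less. Its MYCN ON values ran from 20.8 over a median of 27.4 to 32.8 CPM, and MYCN OFF tumors 1 to 4 were at 67.6, 42.6, 45.3 and 45.6 CPM. Tumor 1 stood above the other 3 MYCN OFF tumors, and all 4 were above MYCN ON. On the log2 scale the fold change was -0.87 (SE 0.18, 95% interval -1.26 to -0.47, edgeR adjusted p = 0.00618).

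The ratio of 2 genes inside a tumor does not depend on how libraries are scaled, and it separated the groups for this pair. Counts of Irf1 over Irf2 were 0.612, 0.473, 0.599, 0.759, 0.920, 0.498 and 1.06 in MYCN ON tumors 1 to 7, against 1.34, 1.52, 1.32 and 1.96 in MYCN OFF tumors 1 to 4. Irf1 thus had fewer reads than Irf2 in 6 of 7 MYCN ON tumors and more in all 4 MYCN OFF tumors. Irf1 has 3.98 kb of exon and Irf2 7.40 kb, so a count ratio of 1 does not mark equal levels. Per kb of exon the MYCN ON means were 4.90 ± 1.75 CPM for Irf1 and 3.73 ± 0.581 CPM for Irf2. On the log2 scale the mean ratio was -0.57 ± 0.44 in MYCN ON and 0.60 ± 0.26 in MYCN OFF. No test was run on the ratios.

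Irf3, which is present in unstimulated cells and is activated by phosphorylation, differed by about the same amount as Irf2. It was at 21.4 to 40.4 CPM in MYCN ON, with a median of 26.0, and at 51.0, 58.1, 49.1 and 56.9 CPM in MYCN OFF tumors 1 to 4. The MYCN OFF tumors were close together, with a coefficient of variation of 8.21%, and MYCN ON tumor 4 came nearest to them. As a log2 fold change this is -0.94 (SE 0.19, 95% interval -1.34 to -0.53, edgeR adjusted p = 0.00442).

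Irf7, the amplifier of type I interferon production, had both the largest difference and the largest spread of the 9 genes. It was at 1.98, 1.06, 2.59, 2.38, 17.4, 5.17 and 3.10 CPM in MYCN ON tumors 1 to 7, which is 12 to 223 reads. In MYCN OFF tumors 1 to 4 it was at 179, 36.3, 110 and 23.9 CPM. Tumor 5, with the highest lung and immune marker sums in MYCN ON (3616 and 933 CPM), was the nearest to MYCN OFF and still below all 4. That tumor also had the lowest Mycn in MYCN ON (36.5 CPM), and how these features bear on its Irf7 was not tested. For Irf7 the groups differed by a log2 fold change of -4.17 (SE 0.75, 95% interval -5.81 to -2.53, edgeR adjusted p = 0.00277). It was -5.01 without MYCN ON tumor 5 and -3.55 without MYCN OFF tumor 1, and both were called (adjusted p = 0.000839 and 0.00935; 13.5% and 6.59% of all genes lower).

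Irf9, the DNA-binding subunit of ISGF3, was lower in MYCN ON, but its groups overlapped. Its lowest, median and highest values were 9.64, 18.2 and 31.4 CPM in MYCN ON, against 94.8, 24.2, 46.8 and 38.7 CPM in MYCN OFF tumors 1 to 4. MYCN ON tumor 5 at 31.4 CPM was above MYCN OFF tumor 2 at 24.2 CPM. The groups differed by a log2 fold change of -1.48 (SE 0.37, 95% interval -2.28 to -0.68, edgeR adjusted p = 0.0127), and without MYCN OFF tumor 1 it was -0.998 and not called (adjusted p = 0.0597).

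**Figure D2:**
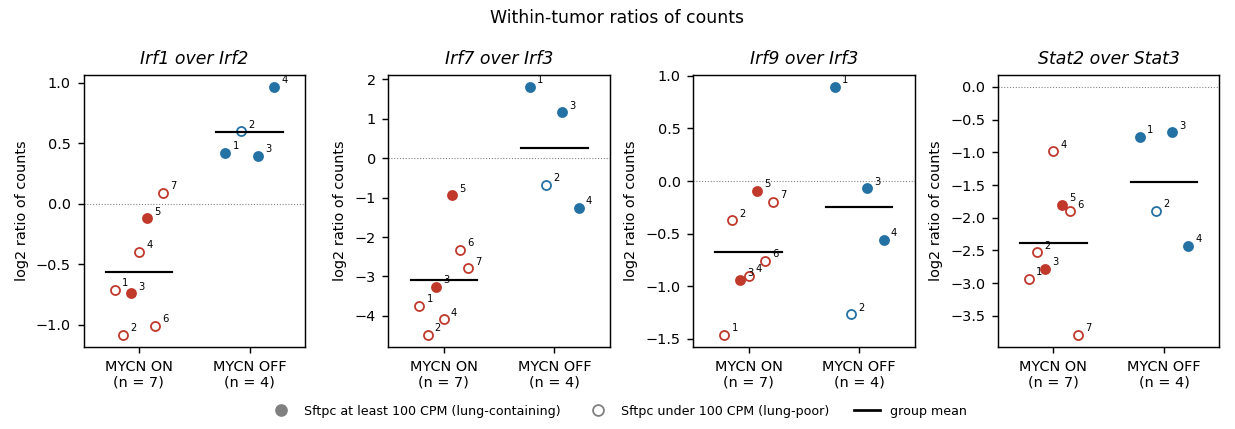
Log2 ratio of the counts of 2 genes inside each tumor (y axis), with MYCN ON tumors (red) left of MYCN OFF tumors (blue), numbered by tumor. Black lines are group means. The dotted line marks equal counts, which are not equal levels because the genes differ in length. The groups separate for Irf1 over Irf2 (highest MYCN ON ratio 1.06, lowest MYCN OFF ratio 1.32 on the linear scale) and overlap for the other 3 pairs.

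Ratios of the other 3 pairs overlapped between the groups. Irf7 over Irf3 had a median of 0.104 in MYCN ON and 1.44 in MYCN OFF, and MYCN ON tumor 5 (0.520) lay above MYCN OFF tumor 4 (0.420). Irf9 over Irf3 spanned 0.364 to 0.937 in MYCN ON, against 0.416 to 1.86 in MYCN OFF, and MYCN OFF tumor 2 had the second lowest ratio of all 11 tumors. Stat2 over Stat3 spanned 0.0725 to 0.506 in MYCN ON, against 0.185 to 0.618 in MYCN OFF. On the log2 scale the group means differed by -3.35 for Irf7 over Irf3, -0.43 for Irf9 over Irf3 and -0.94 for Stat2 over Stat3.

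Levels of different genes were compared per kilobase of exon, using the union of annotated exons. That union can be longer than the transcripts present, by an amount that may differ between genes. In MYCN ON the order was Ifnar1 (17.9 ± 2.71 CPM per kb), Stat3 (12.9 ± 7.92), Jak1 (11 ± 4.42), Irf3 (8.15 ± 1.92), Irf1 (4.90 ± 1.75), Irf2 (3.73 ± 0.581), Stat2 (3.63 ± 1.12), Irf9 (3.39 ± 1.30) and Irf7 (1.27 ± 1.51). In MYCN OFF Irf7 led with 23.1 ± 19.0 CPM per kb, followed by Stat3 (20.7 ± 6.15), Jak1 (19.5 ± 3.90), Irf1 (19.1 ± 4.06), Ifnar1 (16.2 ± 1.53), Irf3 (15.6 ± 1.28), Stat2 (12.3 ± 3.98), Irf9 (9.49 ± 5.67) and Irf2 (6.80 ± 1.58). In MYCN ON every neighbour in this order differed from the next by less than the larger of their SDs, except Irf3 from Irf1 and Irf9 from Irf7. In MYCN OFF this held for every pair of neighbours, so no neighbouring places were separated beyond their spread. Irf7 was last in MYCN ON and first in MYCN OFF, and its MYCN OFF spread reaches every other place in that order.

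The differences were also read beside the lung and immune RNA. Sftpc, the surfactant gene that marks alveolar type II cells, reached at least 100 CPM in MYCN ON tumors 3 and 5 and in MYCN OFF tumors 1, 3 and 4 (called lung-containing here), and was lower in the remaining 6 (lung-poor). Immune markers were lower in MYCN ON for 13 of 19 tested, against 13.4% of all genes. With the immune score (mean log2 CPM of the 20 markers) as a covariate, 3 of the 9 genes were called lower, against 3.16% of all genes. They were Irf1 (log2 fold change -1.84, edgeR adjusted p = 0.0197), Irf7 (-2.35, adjusted p = 0.0482) and Stat2 (-1.39, adjusted p = 0.0356). With the lung score as a covariate 4 were called, those 3 and Irf3 (-0.94, adjusted p = 0.0269), against 3.55% of all genes. Irf9, at -1.48 without a score, was at -0.39 with the immune score (adjusted p = 0.571) and at -0.79 with the lung score (adjusted p = 0.233).

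MYCN OFF tumor 2 gives the same comparison in single values. Its immune markers summed to 442 CPM, inside the MYCN ON range, and its lung markers to 150.0 CPM. Lyz2 alone gave 140 CPM of the immune sum. Of the immune markers, Coro1a (55.9 CPM) and Cd79a (12.2 CPM) were above every MYCN ON tumor (at most 41.2 and 6.75 CPM). The other immune markers were inside the MYCN ON range. In that tumor Irf1 (64.6 CPM), Stat2 (70.5 CPM), Irf3 (58.1 CPM), Irf2 (42.6 CPM) and Irf7 (36.3 CPM) were above all 7 MYCN ON tumors, and so was Jak1 (123 CPM, against at most 121 CPM in MYCN ON). Irf9, Stat3 and Ifnar1 were inside the MYCN ON range. MYCN OFF tumor 2 is a single tumor, and its muscle markers summed to 469 CPM. They summed to 110 CPM in MYCN ON tumor 2 and to at most 12.2 CPM in the other MYCN ON tumors. Within the 5 lung-containing tumors (2 MYCN ON and 3 MYCN OFF) the log2 fold changes were -3.36 for Irf7, -1.82 for Irf1, -1.61 for Stat2, -1.41 for Irf9, -0.82 for Irf3 and -0.81 for Irf2. Within the 6 lung-poor tumors (5 MYCN ON and 1 MYCN OFF) they were -3.74, -1.84, -1.80, -0.56, -1.10 and -0.69 in the same order. The lone MYCN OFF tumor is assumed to vary like the rest. Neither of these smaller fits called any gene (0% of all tested) at an edgeR adjusted p below 0.05, while 3898 and 2288 genes had an unadjusted p below 0.05, among them 7 and 4 of the 9. Immune and lung RNA moved with the groups, and their part in the differences was not tested beyond these values.

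**Figure D3:**
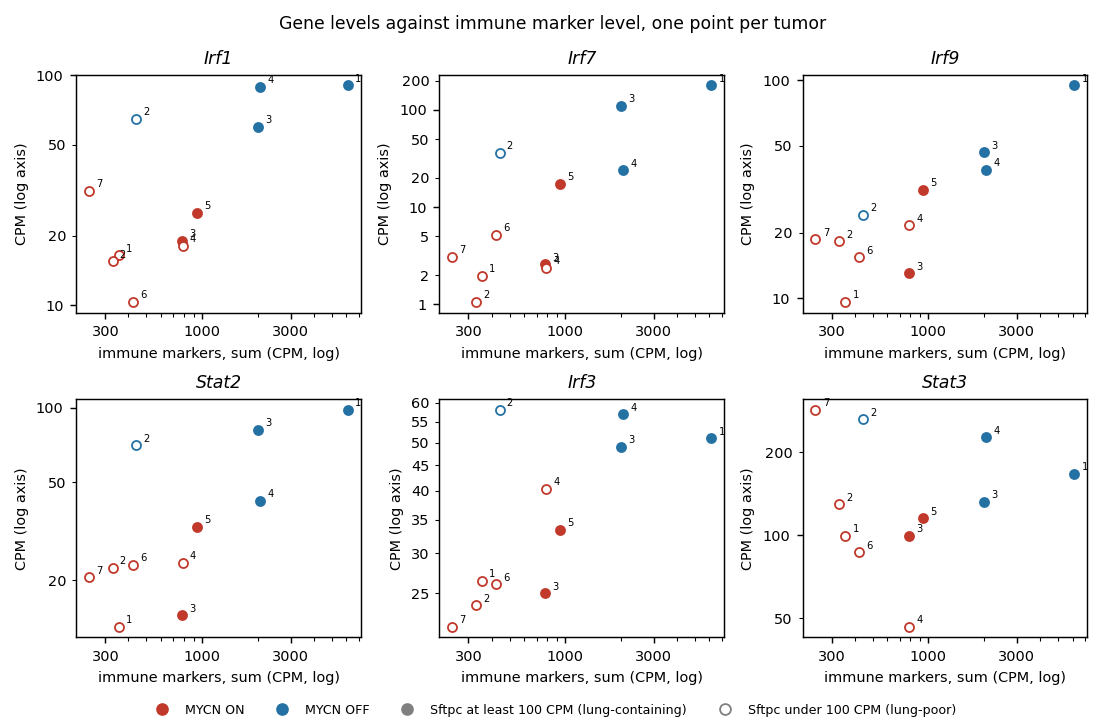
CPM of 6 of the genes (y axes, log) against the summed CPM of 20 immune markers (x axes, log), one point per tumor, MYCN ON in red and MYCN OFF in blue; filled points have Sftpc of at least 100 CPM. MYCN OFF tumor 2, at 442 CPM of immune markers, lies above all MYCN ON tumors for Irf1, Irf7, Stat2 and Irf3, and among them for Irf9 and Stat3.

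**Figure D4:**
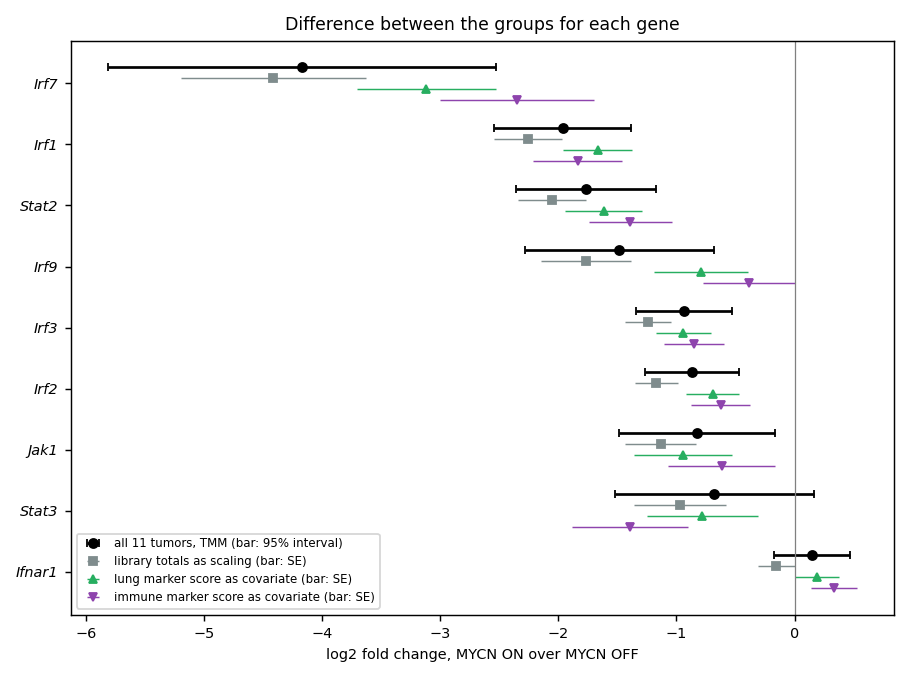
Log2 fold change of each gene, MYCN ON over MYCN OFF (x axis), with all 11 tumors (black, 95% interval) and with library totals as the scaling, the lung score as a covariate or the immune score as a covariate (colors, SE). Irf7, Irf1 and Stat2 stay below -1 in each, Irf9 moves to -0.39 with the immune score, and Ifnar1 lies on both sides of 0.

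Of 4 other IRF genes tested, 2 were called lower in MYCN ON and 0 higher, against 13.4% and 16% of all genes. Irf8, a factor of macrophages, dendritic cells and B cells, was at 9.32 ± 3.53 against 36.5 ± 17.4 CPM (a log2 fold change of -1.97, edgeR adjusted p = 0.0026), and MYCN OFF tumor 2 at 27.3 CPM was above the highest MYCN ON tumor at 15.4 CPM. Irf5, which acts downstream of Toll-like receptors, was at 5.16 ± 2.24 against 13.5 ± 7.09 CPM (a log2 fold change of -1.38, adjusted p = 0.0304), and its groups overlapped.

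Upstream of Irf3 and Irf7, 3 of 13 adaptors and kinases were lower, 1 was higher and 9 were not called. Over all genes, 13.4% were lower and 16% higher. Myd88, the Toll-like receptor adaptor that feeds Irf7, was lower (7.65 ± 2.97 against 27.6 ± 14.6 CPM, log2 fold change -1.85, edgeR adjusted p = 0.00614). Ikbke, a kinase that phosphorylates Irf3 and Irf7, was lower at -1.76 (adjusted p = 0.0152), and so was Ticam1, the adaptor TRIF, at -0.72 (adjusted p = 0.0451), although Ticam1 was not called under 16 of 26 alternatives. Traf6, a ubiquitin ligase downstream of Myd88, was the one that was higher, at 72.2 ± 10.8 against 35.1 ± 3.35 CPM, 1.04 on the log2 scale (SE 0.16, adjusted p = 0.00143), with no overlap between the groups. Tbk1, the main Irf3 kinase, was at 60.5, 84.1, 60.2, 69.2, 61.0, 51.6 and 80.4 CPM in MYCN ON tumors 1 to 7 and at 54.1, 65.2, 51.4 and 52.7 CPM in MYCN OFF tumors 1 to 4, and it was not called (adjusted p = 0.26).

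The interferon genes themselves were almost absent from the poly(A) reads. None of the 11 listed passed the low-count filter, and 6 of them, Ifnb1 included, had 0 reads in every tumor, which allows up to 0.349 CPM in a MYCN ON tumor and 0.297 CPM in a MYCN OFF tumor (3 counts per tumor, counting error only). All 11 together had 5 reads in the MYCN ON tumors and 10 in the MYCN OFF tumors, of which Ifng had 1 and 6. Differences between the groups were not detectable at this depth.

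Inhibitors of the pathway went in both directions, as did genes at large. Of 19 tested, 4 were lower, 2 were higher and 13 were not called, where 13.4% of all genes were lower and 16% higher. The median log2 fold change of the 19 was 0.00288, beside 0.00230 over all genes. Pias3, the inhibitor of Stat3 binding to DNA, was lower (22.2 ± 3.67 against 49.7 ± 10.8 CPM, log2 fold change -1.16, edgeR adjusted p = 0.00183). Ptpn6, the phosphatase SHP-1 of blood cells, was lower at -2.18 (adjusted p = 0.00681), and so were Irf2bp2, a corepressor that binds Irf2, at -0.61 (adjusted p = 0.0106) and Socs3 at -1.73 (adjusted p = 0.0157). Socs4, a less studied member of the suppressor of cytokine signaling family, was higher at 27.9 ± 10.3 against 9.06 ± 3.35 CPM (a log2 fold change of 1.62, adjusted p = 0.0064). The second inhibitor called higher was Pias2 (log2 fold change 0.85, adjusted p = 0.0263).

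The ISGF3 and Irf1 target lists had larger median differences than the 9 genes, and the Stat3 target list had a smaller one (-0.73). Of 24 ISGF3 target genes 21 were lower in MYCN ON and 0 higher, with a median log2 fold change of -3.23, and in 10 every MYCN ON tumor lay below every MYCN OFF tumor. Over all genes tested, 13.4% were lower and 5.41% were separated in that way. Oas1a and Oasl1, of the oligoadenylate synthetase family, and Dhx58, the helicase LGP2, had log2 fold changes of -3.89, -3.40 and -3.02 (edgeR adjusted p = 0.0017, 0.0016 and 0.000619). These genes are among the 10 without overlap. In MYCN OFF tumor 2, by contrast, Isg15 (7.93 CPM), Ifit1 (12.7 CPM) and Oas2 (8.02 CPM) lay below MYCN ON tumor 5 (8.90, 22.3 and 16.2 CPM). Of 19 Irf1 and gamma-activated target genes tested 18 were lower and 0 higher, with a median log2 fold change of -2.61. In 10 of them every MYCN ON tumor lay below every MYCN OFF tumor. The smallest p-values in that list were those of the antigen-loading genes Tapbp (34.5 ± 14.0 against 185 ± 80.5 CPM) and Tap2 (7.01 ± 5.01 against 60.6 ± 25.8 CPM), the GTPase Irgm1 (log2 fold change -2.86) and the immunoproteasome subunit Psmb8 (-3.01). Stat3 target genes were mixed, with 4 of 17 lower, 2 higher and 11 not called, against 13.4% of all genes lower and 16% higher. Junb (log2 fold change -1.54, adjusted p = 0.00563), Cebpd (-1.89, adjusted p = 0.0153), Socs3 and Bcl6 were lower, while Hif1a was higher (241 ± 67.3 against 124 ± 19.3 CPM, log2 fold change 0.96, adjusted p = 0.00931) and so was Birc5, the mitotic protein survivin. Of 11 receptors and ligands that signal through Stat3, 1 was lower, Il10ra of the interleukin 10 receptor (log2 fold change -1.71, adjusted p = 0.01103), and 0 were higher. Over all 118 other pathway genes tested, 60 were lower and 5 higher. With the immune score as a covariate 14 were lower and 1 higher, against 3.16% and 5.51% of all genes. The lung score gave 25 and 2, against 3.55% and 7.7%.

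**Figure D5:**
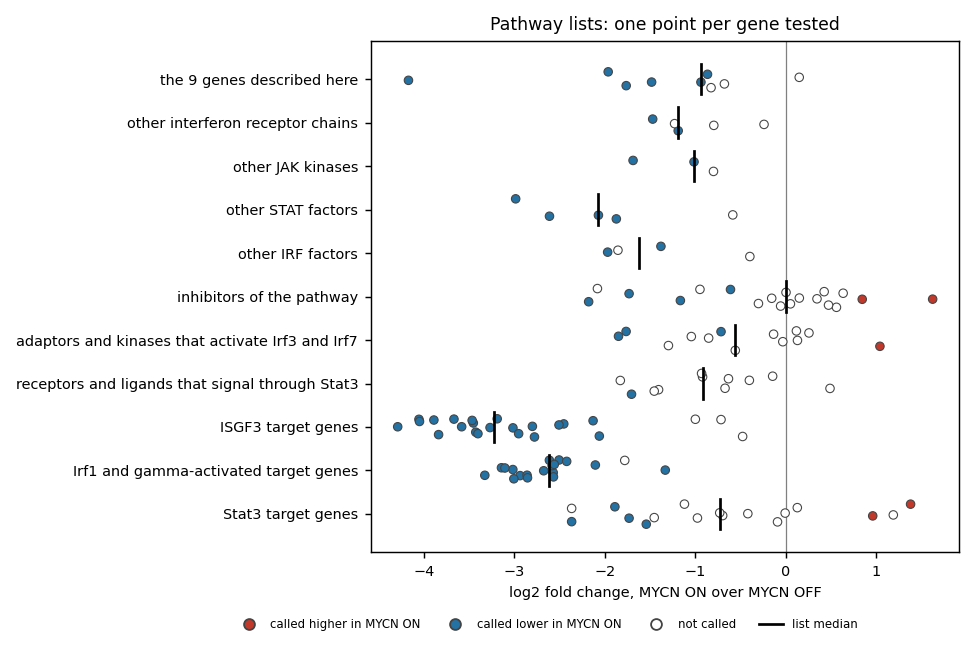
Log2 fold change, MYCN ON over MYCN OFF (x axis), of every gene tested in 11 lists (rows), one point per gene; blue points were called lower in MYCN ON, red points higher and open points were not called, and black bars are list medians. The ISGF3 and the Irf1 target lists lie furthest to the left, with medians of -3.23 and -2.61, and the inhibitors have a median of 0.00288.

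The 9 genes differed in which other genes had the most similar profile over the 11 tumors. Likeness was the root mean square difference of standardized log2 CPM, where 0 is an identical profile. Irf7 was nearest to the interferon-stimulated genes Oas1a (0.176), Apol9b (0.190) and Nlrc5 (0.213). Irf1 and Irf2 were nearest to Parp10 (0.234) and Parp12 (0.201), both ADP-ribosyltransferases, and Stat2 had Apol10b (0.296) and Oas1g (0.302) among its nearest 3. Irf9 was nearest to Ak7 (0.232), an adenylate kinase of ciliated cells, followed by Kmo (0.263) and the T cell marker Cd8a (0.267). Irf3 was nearest to Fuz (0.231), and Tyk2 was among its nearest 3 (0.277). Stat3, Jak1 and Ifnar1 were nearest to Rab40b (0.278), Pml (0.319) and Tmem185b (0.365). Among the 9 themselves the closest pairs were Irf7 with Stat2 (0.334) and Irf1 with Irf2 (0.426). The 11 tumors share the difference between the groups, so these values describe profiles and are no test.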

How the data were processed

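Poly(A) RNA of 11 tumors was sequenced. HTSeq 0.6.1, TopHat2 2.0.8b, bcl2fastq 1.8.4 and mouse build mm9 are named, per the submitters' processing notes. Which annotation was used, and whether strand was, is not given in the sources used here; overlapping and antisense genes cannot be told apart. The authors deposited raw read counts per gene symbol, with 5 summary rows (30.6% to 38.2% of records) that were left out.

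Groups and tumor numbers came from the titles. In R 4.3.3, edgeR 4.0.16 ran its quasi-likelihood test (robust, TMM factors) on the 15237 of 23284 genes passing filterByExpr (minimum count 10, total 15), with Benjamini-Hochberg adjustment over all of them. SE is the log2 fold change over the root of F. Scores use log2 CPM with prior count 2. Tools as alternatives were DESeq2 1.42.0 and limma 3.58.1. The test was also run on simulated counts with far fewer changed genes than the 4475 called here. That setting differs from these data, and its outcome is not given here. Counts of every same-group pair differed by more than sampling noise (smallest chi-square per gene 50.5). Exon lengths came from GENCODE (another build, GRCm38), and start-site sequences from RefSeq.

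The genes, lists and tests were chosen with earlier results of these data known. Named genes were the 9, fixed partners and paralogs, Mycn, Sftpc, up to 4 called genes with the smallest p per list, and the 3 nearest profiles per gene (mean of at least 1 CPM). Tbk1, Pias2, Bcl6, Birc5, Ifnb1 and Ifng were added after their values were seen. Not every gene taken by this rule is reported here.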

Additional observations from a re-analysis of the deposited data

Results flagged for a closer look

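A value was marked where 1 tumor stood apart from the rest of its group by Dixon's criterion, which marks about 1 group in 20 by chance. Of 90 groups of values, 11 were marked. Of these, 3 concerned the genes described here. Irf7 in MYCN ON tumor 5 was 17.4 CPM, against 5.17 CPM in the next highest MYCN ON tumor. Stat3 in MYCN ON tumor 7 was 284 CPM, with the next at 130 CPM. Irf2 in MYCN OFF tumor 1 was 67.6 CPM, with the next at 45.6 CPM. MYCN ON tumor 5 was also apart for Oas1a (3.36 CPM), Irgm1 (14.8 CPM) and Sftpc (1310 CPM), and MYCN ON tumor 7 for Socs3 (50 CPM). MYCN OFF tumor 1 was apart for Sftpc (9510 CPM) and MYCN OFF tumor 2 for Stat5a (35.6 CPM). Junb stood apart in MYCN ON tumor 2 (8.85 CPM, the lowest) and in MYCN OFF tumor 4 (105 CPM, the highest).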

How the results depend on the processing

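Of 234 results for the 9 genes under 26 alternatives, 232 kept their direction, 27 lost a call and 11 gained one. Ifnar1 reversed with upper quartile factors (-0.064) and library totals (-0.15). Log2 values divide MYCN ON by MYCN OFF, and the causes of the changes were not tested. Irf1, Irf7 and Stat2 kept their call with the replicate block and lost it only in 3 subsets of tumors chosen by lung or immune markers. The count of 6 lower became 3 with the immune score and 0 in the first of those subsets, the lung-containing tumors. The other subsets were lung-poor tumors and tumors under 1000 CPM of immune markers (7 MYCN ON and 1 MYCN OFF, chosen after seeing the data). Each of these has tumor 2 as its lone MYCN OFF tumor, which is assumed to vary like the rest. Leaving out 1 tumor gave 5 to 7 lower.

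Over all genes, 2437 were higher and 2038 lower. Library totals gave 1317 and 3347 and put the median log2 value over all genes at -0.31, and upper quartile factors put it at -0.21. The lung score gave 1173 and 541, the immune score 839 and 481, an adjusted p below 0.01 gave 1187 and 516, the lung-containing and lung-poor subsets 0 and 0, and the immune-poor subset 18 and 23. Leaving out 1 tumor gave 1674 to 2955 higher and 1015 to 2438 lower (1015 without MYCN OFF tumor 1, 1248 without tumor 4).

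For the 118 other pathway genes, the 5 higher became 3 with library totals or an adjusted p below 0.01, 2 with the lung score, 1 with the immune score, 0 in the subsets and 3 to 6 with 1 tumor left out (3 without MYCN OFF tumor 1, 3 or 4). The 60 lower became 35 at an adjusted p below 0.01, 25 and 14 with the scores, 0 in the subsets and 42 to 66 with 1 tumor left out.

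Among other genes named as lower, Ticam1 lost its call under 16 of 26 alternatives, Stat4 under 13, and Ifnar2, Il10rb and Irf5 under 12 each. Reversed values of other genes were, with the immune score, 0.23 for Ifnar2, 0.20 for Ifngr1, 0.66 for Ifngr2 and 2.77 for Sftpc; with the lung score, 0.29 for Ifngr2 and 0.52 for Sftpc; in lung-poor tumors, 0.17 for Ifnar2, 0.0020 for Ifngr1, 0.61 for Ifngr2 and 0.28 for Stat6; in the immune-poor subset, 0.39, 0.14, 0.68 and 0.54 for these 4 and 5.80 for Sftpc; and 0.065 for Ifngr2 without MYCN OFF tumor 1, where leaving out 1 tumor gave -0.44 to 0.065.

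With the replicate number as a block (tumors 1 to 4), 1829 genes were higher and 1180 lower, 4 of the 9 being lower; Irf2 (adjusted p = 0.0618) and Irf9 (0.0701) lost their call. Deviations of same-numbered tumors correlated at -0.16, 0.46, -0.08 and 0.27, and those of different-numbered tumors at -0.37 to 0.27. Tumor 2 had the highest muscle marker sum in MYCN ON (110 CPM) and in MYCN OFF (469 CPM). The titles do not say whether the numbers pair the tumors, and these mixed values cannot decide it.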
